A study of Mus musculus with 10 samples.

Results

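The epithelial keratins Krt7, Krt8, Krt18 and Krt19, the epithelial adhesion molecule Epcam, and the EMT transcription factors Zeb1, Zeb2, Snai1, Snai2 and Twist1 were read by gene name from the count table of CT26 tumors. These 10 genes, 5 epithelial genes and 5 transcription factors, were taken from 36009 genes in the table. All 10 names had a row, and 7 of the 10 genes passed the filter on low counts that left 16041 genes for testing.

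CT26 is a BALB/c mouse colorectal carcinoma cell line, and the mice carrying it here were wild-type females. Tumors grew under the skin, most of each tumor was removed by surgery, and polyA RNA of the removed piece was sequenced. Each mouse then received a hydrogel that releases poly(I:C), a synthetic double-stranded RNA that activates innate RNA sensors, on the tumor left behind. In 6 mice the tumor regressed completely (responders), and in 4 mice tumor growth was not delayed (non-responders), so the groups differ in what happened after sampling and share strain, sex, cell line and untreated state. The tumors contain stromal and immune cells of the host beside CT26 cells, and all of them derive from 1 transplanted line. Depth ranged from 29065126 to 38042544 estimated counts in responders and from 23374649 to 32986456 in non-responders.

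Keratins are intermediate filament proteins of epithelial cells. Krt8 and Krt18 pair as the filament of simple epithelia, and Krt7 and Krt19 are type II and type I keratins of simple and ductal epithelia. Epithelial-mesenchymal transition (EMT) is the program by which epithelial cells lose junctions and keratins and take on migratory, fibroblast-like features. ZEB, SNAIL and TWIST factors drive it, in part by binding E-box sequences in the promoters of epithelial genes and repressing them. Mesenchymal stromal cells also express these factors, and Zeb2 is expressed by macrophages, NK cells and other leukocytes. In these bulk samples, fewer cells of a type and less RNA per cell cannot be told apart.

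Across all 10 tumors the epithelial genes had low counts and the EMT transcription factors were well expressed. The 5 epithelial genes had between 0 and 34.4 estimated counts in a tumor, whereas no transcription factor had fewer than 391 counts in any tumor. The line is labeled a colorectal carcinoma, and Krt7, Krt8, Krt18 and Krt19 had few counts in these samples. Krt20, a keratin outside the set, had 454 to 1865 counts in a tumor. Among 8 intestinal epithelial markers, Cdx1 and Fabp2 stayed at or below 3 counts in every tumor. Vil1 had 0 to 4 counts and Lgr5 had 0 to 8.06. Muc2 had 6.5 to 19 counts, Cdx2 13 to 40 and Cdh17 98 to 175. Krt20 carried most of the summed level of the list. That summed level ranged from 17.2 to 42.6 CPM in responders and from 39.4 to 81.9 CPM in non-responders.

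**Figure D1:**
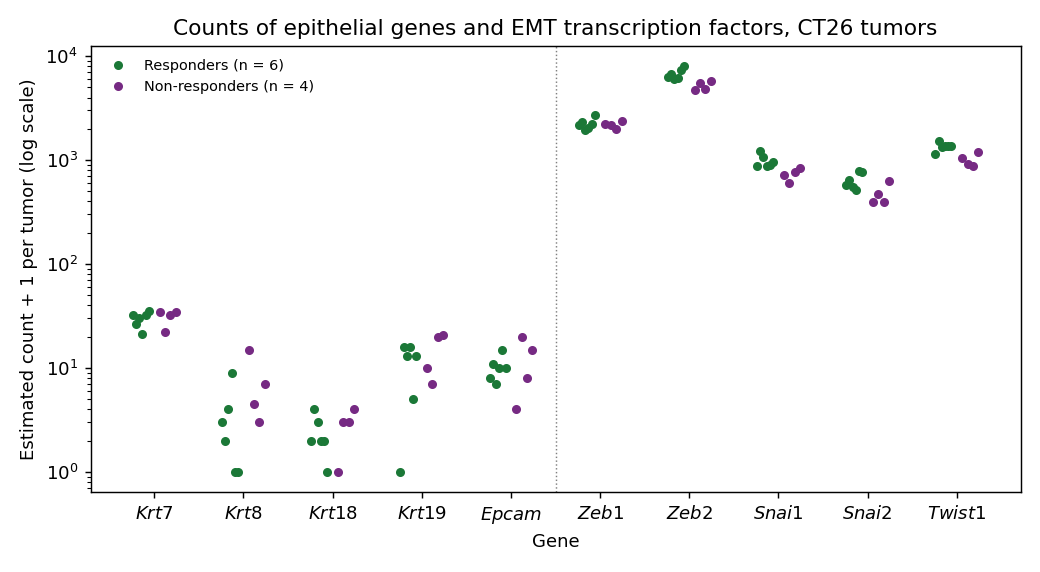
Estimated counts plus 1 in each tumor (log scale) for the 5 epithelial genes, left of the dotted line, and the 5 EMT transcription factors, right of it. Green points are the 6 responders and purple points the 4 non-responders. No epithelial gene exceeds 34.4 counts and no transcription factor falls below 391 counts.

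Levels of different genes were compared as CPM per kilobase of exon sequence (CPM per kb), where CPM scales counts to library size, with median values over the 10 tumors. Twist1 was highest at 23.3 CPM per kb, followed by Snai1 at 17.8, Zeb2 at 10.3, Snai2 at 9.33 and Zeb1 at 7.01. The ranges of Twist1 (21.2 to 29.4) and Snai1 (13.9 to 23.3) overlapped, and Snai1 lay above Zeb2 (8.78 to 10.6) in every tumor. The range of Snai2 (7.81 to 10.9) overlapped those of Zeb2 and of Zeb1 (6.03 to 8.66). The epithelial genes followed at 0.209 CPM per kb for Krt19, 0.137 for Epcam, 0.134 for Krt7, 0.0485 for Krt8 and 0.0355 for Krt18. Neighbors in this order had overlapping ranges, whereas Krt18 (0 to 0.0652) lay below Krt7 (0.0936 to 0.191) in every tumor. The lowest transcription factor value in any tumor, 6.03 CPM per kb for Zeb1 in responder 5, was 13.6 times the highest epithelial value, 0.444 CPM per kb for Krt19 in non-responder 3. With the longest transcript as the length, Zeb2 had a median of 22.6 CPM per kb and Zeb1 one of 12.4, so the order among the transcription factors depends on the length used. The gap between the 2 sets was then 14.9 times. By level per kb over 35912 genes, Krt18 lay above 47.6% of genes and Twist1 above 93.6%.

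Read against each other, the epithelial genes supplied under 1% of the counts of the 10 genes in every tumor. The share was 0.370% in responder 1 (exact 95% binomial interval, 0.265% to 0.501%), the lowest of the 10 tumors. It was highest in non-responder 4 at 0.706% (0.557% to 0.881%). With counts left unrounded, the responders ranged from 0.370% to 0.481%, and the non-responders had 0.648%, 0.533%, 0.692% and 0.701%. The groups did not overlap in this share, but no test was run on it, since it is a score over chosen genes. The intervals cover counting error only, and most of them overlapped between the groups. Those of non-responders 1 and 2 overlapped the interval of every responder. Those of non-responders 3 and 4 overlapped the intervals of responders 2, 3 and 4 and lay above those of the other responders. The summed epithelial level ranged from 1.36 to 1.79 CPM in responders and from 1.94 to 2.64 CPM in non-responders. It is not a second result, since it uses the same 41.0 to 76.5 epithelial counts in a tumor. The summed transcription factor level overlapped, at 352 to 389 CPM in responders and 327 to 382 CPM in non-responders. Over all genes tested, 10.4% did not overlap between the groups in CPM. Krt7 was the largest part of the summed epithelial level in every tumor, but not always most of it. It was 0.660 of 1.75 CPM in responder 4 and 0.784 of 1.94 CPM in non-responder 2. Krt19, Epcam and Krt8 contributed different amounts in each tumor.

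Of the 7 genes tested, 1 passed the threshold of an adjusted p of 0.05 by edgeR's quasi-likelihood test of responders against non-responders. Zeb1 was lower in responders, and no gene of the set was called higher. Over all genes tested, 8.06% were called in either direction, 4.71% higher and 3.35% lower in responders, and 1 of 7 is not a result about the set beside that background. None of the 7 separated the groups without overlap in CPM, against 10.4% of all genes tested. Estimates for the other transcription factors were above 0 and those for Krt7 and Krt19 below 0. The median log2 fold change over all genes was -0.01.

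**Figure D2:**
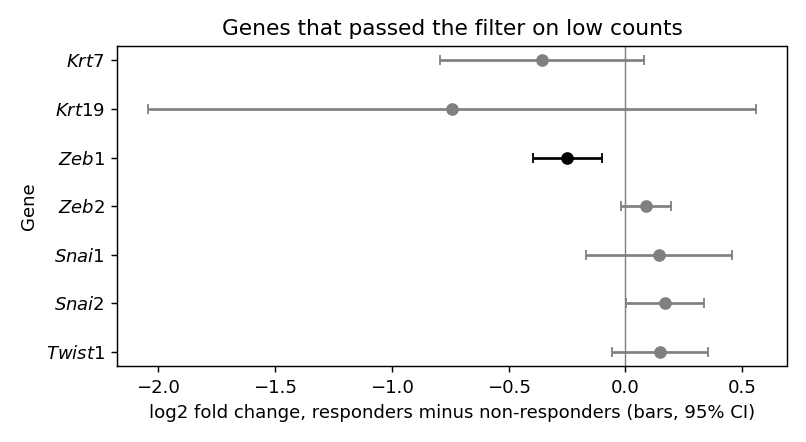
Log2 fold changes of the 7 tested genes, responders minus non-responders, with 95% confidence intervals from edgeR's quasi-likelihood fit. Zeb1 (black) is the gene past the adjusted threshold, at -0.25, and the interval of Krt19 is the widest, from -2.05 to 0.56.

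Among the epithelial genes, Krt8 (ENSMUSG00000049382, chr15:101996698-102004482, minus strand, GRCm38) is the type II keratin of simple epithelia. Responders had 0 to 8 counts with a median of 1.5, and non-responders 1 to 4 had 14, 3.54, 2 and 6 counts. Non-responder 1 stood highest, 2 responders had no count, and the groups overlapped. Krt8 did not pass the filter. Without the filter, its log2 fold change was -1.68 (95% CI, -3.46 to 0.11), with an adjusted p of 0.291 by edgeR, and the level in non-responders fell from 0.246 ± 0.217 CPM (SD, n = 4) to 0.139 ± 0.0480 CPM (n = 3) without non-responder 1. The mean in responders was 0.0775 ± 0.0997 CPM (SD, n = 6).

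Krt18 (ENSMUSG00000023043, chr15:102028180-102032027, plus strand), the type I partner of Krt8, lies 23697 bases from it on the same chromosome. It had 15 counts in all 10 tumors together and never more than 3 in one. Responders had 0 to 3 counts with a median of 1, and non-responders had 0, 2, 2 and 3 counts. No fold is given for Krt18, because a count of 3 in the shallowest library corresponds to 0.128 CPM and every value lay at or under the floor of 3 counts.

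Krt7 (ENSMUSG00000023039, chr15:101411043-101430313, plus strand), a type II keratin, was the keratin of the set with the most reads. Responders ranged from 0.660 to 1.03 CPM with a median of 0.877, and non-responders had 1.33, 0.784, 1.34 and 1.03 CPM. Non-responders 1 and 3 lay above every responder, and non-responder 2 lay among the low responders, so the groups overlapped. On the log2 scale, responders differed by -0.36 ± 0.20 (SE), with an adjusted p of 0.258 by edgeR (95% CI, -0.79 to 0.08).

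Krt19 (ENSMUSG00000020911, chr11:100140810-100148665, minus strand), a type I keratin without the usual tail domain, varied more between tumors. Responders had 0 to 15 counts with a median of 12, and non-responders had 9, 6, 19 and 20 counts. Responder 1 had none and responder 5 had 4, while non-responders 3 and 4 stood highest, so the groups overlapped. In CPM, the means were 0.300 ± 0.202 (SD, n = 6) in responders and 0.504 ± 0.265 (SD, n = 4) in non-responders. The log2 fold change was -0.74 ± 0.59 (SE), with an adjusted p of 0.435 by edgeR, and the interval reached from -2.05 to 0.56.

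Epcam (ENSMUSG00000045394, chr17:87635979-87651129, plus strand) encodes a homophilic adhesion molecule of epithelial cells. Responders had 6 to 14 counts with a median of 9, and non-responders had 3, 19, 7 and 14 counts. The highest and the lowest tumor were both non-responders, 2 and 1. Epcam did not pass the filter, and without it the log2 fold change was -0.48 (95% CI, -1.34 to 0.38), with an adjusted p of 0.526 by edgeR. The means were 0.279 ± 0.0685 CPM (SD, n = 6) in responders and 0.389 ± 0.247 CPM (SD, n = 4) in non-responders, and 0.282 ± 0.152 CPM (n = 3) in non-responders without non-responder 2.

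Non-responder 2 also carried keratins of skin and hair that were near 0 in the other tumors. It had 82.7 counts of Krt5 and 58 of Krt14, the pair of basal keratinocytes, and 82 of Krt17 and 41.0 of Krt6a. For the hair follicle keratins it had 369 counts of Krt71, 240 of Krt25, 101.1 of Krt27 and 44.0 of Krt33a. These last 4 genes were chosen after their values were seen and had a summed level of 28.1 CPM in non-responder 2 and 0 in the other tumors. The summed level of 8 skin keratinocyte markers was 13.8 CPM in non-responder 2 and 5.72 to 6.61 CPM in the other non-responders, against 6.85 to 8.12 CPM in responders, with Krt1 and Lor at or below 3 counts throughout. Epcam was highest in this tumor, whereas Krt7 and Krt19 were the lowest among non-responders there. The part of skin or hair cells in these values was not tested. The summed level of 8 mammary markers was 0.887 to 1.53 CPM in responders and 0.929 to 1.09 CPM in non-responders, with Csn1s1, Csn2, Wap and Lalba at or below 3 counts.

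**Figure D3:**
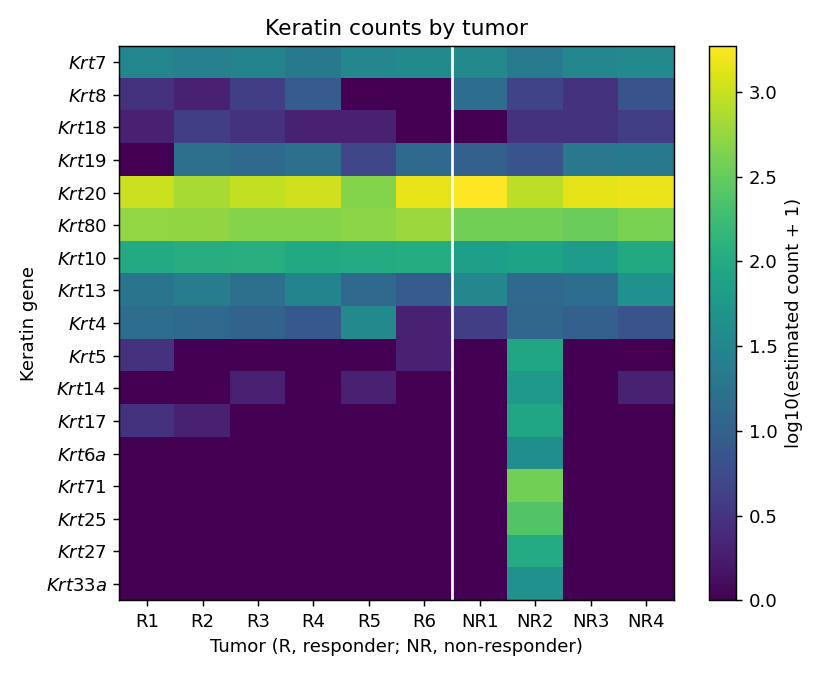
Keratin counts by tumor, as log10(estimated count + 1), with responders R1 to R6 left and non-responders NR1 to NR4 right of the white line. Krt20 and Krt80 are high in every column, Krt8 and Krt18 are dark in most, and the skin and hair keratins from Krt5 to Krt33a are bright in NR2, where Krt71 reaches 369 counts.

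Among the 13 other keratins examined, 5 passed the filter and none of them passed the test. The median log2 fold change of those 5 was 0.16. Krt20, a type I keratin of differentiated intestinal and urothelial cells, was the keratin with the highest level, at a median of 18.1 CPM per kb. Responders ranged from 12.7 to 37.7 CPM, and non-responders 1 to 4 had 75.3, 32.5, 59.4 and 44.5 CPM, so that 3 non-responders lay above all responders and non-responder 2 lay among them. The log2 fold change was -0.86 ± 0.29 (SE), with an adjusted p of 0.0834 by edgeR. Leaving out each of the 10 tumors in turn gave adjusted p from 0.0472 to 0.231 by edgeR. Of these fits 1 passed, without non-responder 2 (log2 fold change -1.04), and the highest adjusted p was without non-responder 1 (log2 fold change -0.64). Krt80, a type II keratin of many epithelia, had 16.0 ± 1.51 CPM (SD, n = 6) in responders and 14.1 ± 1.26 CPM (SD, n = 4) in non-responders, with a log2 fold change of 0.19 ± 0.09 (SE) and an adjusted p of 0.170 by edgeR.

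E-boxes recognized by ZEB and SNAIL factors were looked up in the 250 bases upstream of RefSeq gene starts on GRCm38.p6. The letters searched were CAGGTG and its reverse complement CACCTG, which together cover both strands. Among the promoters described here, those of Krt7, Krt18, Epcam and Snai1 held a match, and those of Twist1 and the 4 listed for Zeb2 did not. They do not cover all members, so no share of the set is given. Of 32851 promoters of this length, 17.2% held at least 1 match and 2.06% held 2 or more. The windows of 30 bases around these matches are shown to compare their flanks, 5′ to 3′ along the gene, with the E-box in capitals.
Krt7, chr15:101412347-101412376, plus strand, 44 bases upstream: ccgccctgtcccCACCTGtgtgcgctcagc
Krt18, chr15:102027990-102028019, plus strand, 214 bases upstream: aggggctaacacCACCTGctatcctttgtg
Epcam, chr17:87635780-87635809, plus strand, 187 bases upstream: gccagtagggccCACCTGctggaggaccgg
Epcam, chr17:87635948-87635977, plus strand, 19 bases upstream: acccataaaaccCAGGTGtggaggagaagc
Snai1, chr2:167538057-167538086, plus strand, 126 bases upstream: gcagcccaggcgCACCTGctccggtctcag

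Epcam had a pair of matches, and its whole window, chr17:87635729-87635978 on the plus strand, is shown with both E-boxes in capitals. Binding was not measured, so a match here describes the sequence and not an occupied site.
Epcam promoter: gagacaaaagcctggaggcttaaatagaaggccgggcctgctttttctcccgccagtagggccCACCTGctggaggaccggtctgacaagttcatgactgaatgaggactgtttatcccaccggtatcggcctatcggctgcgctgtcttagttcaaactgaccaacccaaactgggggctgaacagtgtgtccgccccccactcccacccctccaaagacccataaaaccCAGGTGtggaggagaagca

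Zeb1 (ENSMUSG00000024238, chr18:5591860-5775467, plus strand), a zinc finger and homeodomain repressor of epithelial genes, was lower in responders. Responders ranged from 61.9 to 73.1 CPM with a median of 69.6, and non-responders 1 to 4 had 88.9, 81.0, 86.5 and 71.1 CPM. Non-responders 1, 2 and 3 lay above all responders, and non-responder 4 lay inside their range. The means were 68.9 ± 4.30 CPM (SD, n = 6) and 81.9 ± 7.92 CPM (SD, n = 4). The log2 fold change was -0.25 ± 0.07 (SE), which is 15.8% lower in responders, with an adjusted p of 0.0467 by edgeR.

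The call of Zeb1 lay close to the threshold. Leaving out each of the 10 tumors in turn gave log2 fold changes from -0.31 to -0.20, and in 0 of the 10 fits did Zeb1 pass, with adjusted p from 0.0584 to 0.131 by edgeR. It missed the threshold by limma-voom as well (adjusted p 0.0546) and passed by DESeq2 (adjusted p 0.0149). The 9 fibroblast markers had a summed level of 5795 to 6873 CPM in responders and 5018 to 7999 CPM in non-responders, with all 9 detected. The 8 macrophage and leukocyte markers summed to 3186 to 4770 CPM in responders and 2172 to 3000 CPM in non-responders, without overlap. Within this list the groups overlapped for Mrc1 (log2 fold change -0.13) and Csf1r (0.24) and for no other gene. Over all genes tested, 10.4% did not overlap. Among the fibroblast markers, Pdgfrb and Fap, named after their values were seen, were lower in responders without overlap (log2 fold change -0.58 and -0.78, adjusted p 0.0266 and 0.0207 by edgeR). The other 7 fibroblast markers were not called. Thy1 (log2 fold change 0.45, adjusted p 0.0942 by edgeR), Lum (0.07) and Col1a1 (0.02) had estimates above 0. Those of Col3a1 (-0.21), Dcn (-0.15), Col1a2 (-0.03) and Pdgfra (-0.005) were below 0. The 7 T and NK cell markers summed to 123 to 274 CPM and 70.2 to 133 CPM, and the 5 cycling cell markers to 1392 to 1560 CPM and 1439 to 1571 CPM. The part of any of these cell types in the level of Zeb1 was not tested.

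Zeb2 (ENSMUSG00000026872, chr2:44983632-45117395, minus strand), the paralog of Zeb1, was the most abundant of the 5 factors in CPM and the steadiest, with a coefficient of variation of 5.39% over the 10 tumors. Responders ranged from 203 to 211 CPM with a median of 207, and non-responders had 191, 205, 207 and 175 CPM. Non-responders 1 and 4 lay below all responders, and the other two lay among them. The log2 fold change was 0.09 ± 0.05 (SE), with an adjusted p of 0.249 by edgeR (95% CI, -0.02 to 0.20).

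The paralogs were also compared as a ratio of counts within each tumor. Zeb2 counts were 2.85 to 3.31 times Zeb1 counts in responders, with a median of 2.96. Non-responders 1 to 4 had ratios of 2.15, 2.53, 2.39 and 2.46, so the ratio did not overlap between the groups. It is given as a description, chosen after the single genes were seen, and carries no test.

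Snai1 (ENSMUSG00000042821, chr2:167538195-167542814, plus strand), which encodes the zinc finger repressor SNAIL, varied within both groups. Responders ranged from 25.2 to 37.7 CPM with a median of 29.1, and non-responders had 28.8, 22.5, 33.6 and 25.5 CPM. Responders 2 and 3 were highest and non-responder 2 was lowest, with the rest intermixed. Its log2 fold change was 0.15 ± 0.14 (SE), with an adjusted p of 0.534 by edgeR (95% CI, -0.17 to 0.46).

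Snai2 (ENSMUSG00000022676, chr16:14705852-14709385, plus strand), which encodes the related repressor SLUG, had the smallest CPM of the 5 factors. Responders ranged from 16.9 to 22.0 CPM with a median of 19.6, and non-responders had 15.8, 17.4, 17.2 and 18.9 CPM. All responders except responders 3 and 4 lay above every non-responder. For Snai2 the log2 fold change was 0.17 ± 0.08 (SE), with an unadjusted p of 0.0487 and an adjusted p of 0.169 by edgeR.

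Twist1 (ENSMUSG00000035799, chr12:33957671-33959829, plus strand), a basic helix-loop-helix factor of mesenchyme, was the highest of the set per kb. Responders ranged from 35.6 to 47.8 CPM with a median of 41.7, and non-responders had 42.2, 34.6, 37.6 and 36.3 CPM. Responders 2, 3 and 4 lay above every non-responder, and the other responders were mixed with them. Twist1 had a log2 fold change of 0.15 ± 0.09 (SE), with an adjusted p of 0.317 by edgeR (95% CI, -0.06 to 0.36).

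**Figure D4:**
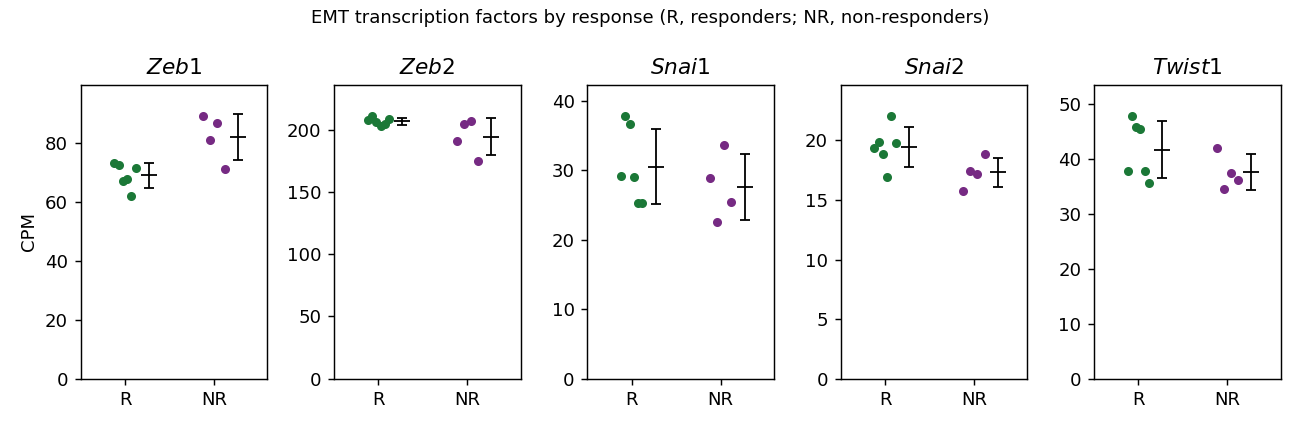
CPM of the 5 EMT transcription factors in the 6 responders (green) and 4 non-responders (purple), with the mean and SD of each group in black and every axis starting at 0. In the Zeb1 panel 3 non-responders sit above all responders, between 81.0 and 88.9 CPM, and in the other panels the groups overlap more widely.

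Epithelial regulators other than the EMT factors were mostly weak or absent. Of 14 such transcription and splicing regulators, 6 passed the filter, none passed the test, and the median log2 fold change of the 6 was -0.17. Klf4 had 62.0 ± 10.6 CPM (SD, n = 6) in responders and 46.6 ± 7.80 CPM (SD, n = 4) in non-responders (log2 fold change 0.41 ± 0.13, adjusted p 0.0750 by edgeR). Klf5, a factor of proliferating epithelium, had 29.3 ± 4.11 CPM and 33.7 ± 5.59 CPM (log2 fold change -0.20 ± 0.12, adjusted p 0.302 by edgeR). Grhl3, Ovol2, Elf3, Cdx1 and Hnf4a stayed at or below 3 counts in every tumor.

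Of 12 epithelial surface and junction genes, 7 passed the filter, 1 was called higher and 1 lower in responders, and the median log2 fold change of the 7 was -0.13. Jup, which encodes the junction protein plakoglobin, had 14.8 to 16.4 CPM in responders and 25.5, 20.7, 22.2 and 24.0 CPM in non-responders, without overlap. Its log2 fold change was -0.54 ± 0.07 (SE), with an adjusted p of 0.0134 by edgeR, and it passed in 9 of 10 fits that each left out a tumor, with 0.0583 without non-responder 4. St14, which encodes the membrane serine protease matriptase, had 6.37 to 8.09 CPM in responders and 3.47, 5.23, 5.46 and 5.73 CPM in non-responders, also without overlap. Its log2 fold change was 0.52 ± 0.14 (SE), with an adjusted p of 0.0466 by edgeR, and it passed in 1 of 10 fits that each left out a tumor. Cdh1, the E-cadherin gene that ZEB and SNAIL factors repress in epithelial cells, was detected at 78.6 to 233 counts in each tumor. It was named after its values were seen, and its log2 fold change was -0.53 ± 0.21 (SE), with an adjusted p of 0.128 by edgeR.

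Of 12 other EMT regulators, 10 passed the filter and none passed the test, with a median log2 fold change of -0.02. Prrx1, a homeobox factor of mesenchyme, had 482 ± 42.0 CPM (SD, n = 6) in responders and 490 ± 40.1 CPM (SD, n = 4) in non-responders (log2 fold change -0.02 ± 0.08, adjusted p 0.867 by edgeR). Tcf4, a helix-loop-helix factor that pairs with TWIST proteins, had 176 to 220 CPM in responders and 233, 227, 244 and 234 CPM in non-responders. The groups did not overlap, and the log2 fold change was -0.17 ± 0.06, with an adjusted p of 0.104 by edgeR.

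Of 12 mesenchymal effectors, all passed the filter and none passed the test, with a median log2 fold change of -0.11. Estimates were below 0 for 9 and above 0 for 3, against 8310 and 7731 over all genes tested. An unadjusted p under 0.05 by edgeR was found for 5 of the 12 and for 4665 of the 16041 genes tested. Fn1, the extracellular matrix glycoprotein fibronectin, had 5608 ± 744 CPM (SD, n = 6) in responders and 6503 ± 1608 CPM (SD, n = 4) in non-responders (log2 fold change -0.21 ± 0.15, adjusted p 0.380 by edgeR). Vim, the intermediate filament of mesenchymal cells, had 3309 ± 215 CPM and 3133 ± 373 CPM (log2 fold change 0.08 ± 0.08, adjusted p 0.546 by edgeR). Per kb, Vim had a median of 674 CPM per kb, against 0.0485 for Krt8.

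Whether members moved together from tumor to tumor was tested for 6 pairs on log2 CPM over the 10 tumors, with permutation p and Benjamini-Hochberg adjustment over the 6 pairs. Krt8 and Krt18 had r = -0.06 and rho = 0.03 (permutation p 0.866 and 0.942). Krt7 with Krt19 had r = 0.11 and rho = 0.10 (permutation p 0.780 and 0.787), and Krt8 with Epcam had r = -0.24 and rho = -0.15 (permutation p 0.502 and 0.673). Zeb1 with Zeb2 had r = -0.11 and rho = 0.13 (permutation p 0.784 and 0.732), and Snai2 with Twist1 had r = -0.13 and rho = -0.03 (permutation p 0.719 and 0.946). Zeb2 with Ptprc, the pan-leukocyte gene CD45, had r = 0.66 and rho = 0.48 (permutation p 0.0492 and 0.167, adjusted 0.295 and 0.946).

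None of the 6 pairs passed after adjustment, where the adjusted p was 0.866 for r in the 5 pairs other than Zeb2 with Ptprc and 0.946 for rho in all 6. The relation of Zeb2 with Ptprc rested on the 2 tumors farthest from the median of Zeb2, non-responders 1 and 4, and r was -0.05 without them. Within the 6 responders, r was -0.16 for this pair (exact permutation p 0.735) and 0.71 for Zeb1 with Zeb2 (exact permutation p 0.104, adjusted 0.625). No correlation was computed within the 4 non-responders.

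The genes whose log2 CPM was most like each member over the 10 tumors were looked up among 13733 genes with at least 1 CPM on average, as a description. Zeb1 was most like Gm48368 (r = 0.96), Fhip2a (0.96) and Cracdl (0.95), and the genes most like Zeb2 included Parp4 (0.95) and Trip11 (0.93). Snai1 was most like Ccdc86 (0.92), Gm19426 (0.92) and Zfpm1 (0.91), and Snai2 was most like Rtl6 (0.97), Cd5 (0.96) and Septin1 (0.96). Twist1 was most like Zbtb7a (0.95), Map1s (0.95) and its paralog Twist2 (0.94). None of these leading genes was another transcription factor of the set. The 5 epithelial genes averaged under 1 CPM (Krt7 highest, at 0.971), so they were not among the genes compared.

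The highest r values of the epithelial genes were of a similar size despite their low counts. Each value of this kind is picked as the largest of 13733 over 10 tumors, and no chance level was computed. Krt7 was most like Yif1a (0.92), Rcor1 (0.91) and Sec24c (0.91), and Krt19 was most like H13 (0.94), Tceal8 (0.94) and Psmd12 (0.89). Krt8 led with Rdh13 (0.95), Krt18 with Trim68 (0.90) and Epcam with Gm3650 (0.90), and these 3 rest on the few counts given above. The tumors are the same for all genes, so library depth and tissue makeup are shared by every one of these values.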

How the data were processed

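PolyA RNA of 10 CT26 tumors was sequenced as 150 bp paired-end reads. The authors checked reads with FastQC v0.11.3, estimated transcript abundance with Kallisto v0.43.0 and summed to genes with tximport on mm10. The table deposited by the authors holds expected counts (estimated counts, 45.1% of them fractional) without depth scaling. The annotation release, tximport option and strand setting are not given in the sources used here, so reads of overlapping or antisense genes may be shared. Counts were rounded and tested in R 4.3.3 with edgeR 4.0.16 (filterByExpr, minimum count 10, minimum total 15; TMM; quasi-likelihood test, two-sided; Benjamini-Hochberg over 16041 genes). The SE is the log2 fold change over the square root of F. CPM are relative to TMM-scaled totals, and log2 CPM had 2 counts added as a prior. Correlations used 100000 permutations, exact within responders.

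Groups came from the response label, and each sample is 1 tumor. Tumor numbers follow accession order and pair nothing. Over 45 pairs of libraries the chi-square per degree of freedom was 10.8 to 121, so no library was a copy of another. Rows without a gene name (9633, holding 1.04% to 1.23% of counts) stayed in the tests. Coordinates and exon lengths came from GENCODE vM21. The genes and lists were chosen with earlier results of these data known. Besides the 10 genes, the text names genes of a list that were called, or otherwise its 2 most abundant genes, and for each member up to 3 genes of highest r. A few items that these rules would name are not reported here. DESeq2 1.42.0, limma 3.58.1, other scalings, filters and leaving out each tumor were alternatives. On simulated counts the edgeR steps were tested first.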

Additional observations from a re-analysis of the deposited data

Results flagged for a closer look

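For 74 sets of values, the gap between the extreme tumor and its nearest neighbor was divided by the whole range within a response group. In 6 sets this ratio passed Dixon's limit, where chance alone gives about 3.7, or 1 in 20. Summed epithelial regulators were 104 CPM in non-responder 1 and 78.3 to 80.5 CPM in the other non-responders (ratio 0.917). Responders had 82.9 to 117 CPM of these. Summed skin keratinocyte markers were 13.8 CPM in non-responder 2 and 5.72 to 6.61 CPM in the other non-responders (ratio 0.890). Summed skeletal muscle markers were 402 CPM in non-responder 2 and 308 to 320 CPM in the other non-responders (ratio 0.873). Responders ranged from 348 to 1122 CPM for muscle, so non-responder 2 stood out within its own group only.

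Responder 5 was low for other EMT regulators, at a sum of 758 CPM against 907 to 960 CPM in the other responders (ratio 0.737). The same tumor had 403 CPM of Prrx1 against 482 to 517 CPM (ratio 0.692) and 176 CPM of Tcf4 against 212 to 220 CPM (ratio 0.803), and both genes are part of that sum. No member of the set was among these values.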

How the results depend on the processing

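The 7 tested members kept their direction under 16 alternatives, and Zeb1 lost its call in 12 of them. All genes called numbered 1293, 2573 by DESeq2, and 0 to 1897 when each tumor was left out. Without non-responder 4 the count was 0 (4106 at an unadjusted p under 0.05), without non-responder 1 it was 16 and without responder 3 it was 17. Of the members, 0 were called by limma-voom (1 at an unadjusted p under 0.05), 0 without the filter (2 at an unadjusted p under 0.05) and 0 in each fit by edgeR that left out a tumor (1 to 3 at an unadjusted p under 0.05), while DESeq2 called 1. In the gene lists 2 genes were called, 8 by DESeq2, 1 by limma-voom, 1 without the filter, and 0 to 4 when each tumor was left out. The estimate for Prrx1 reached from -0.0688 to 0.0251 when each tumor was left out and was above 0 without responder 5 and without non-responder 3.

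All 6 correlations changed sign under at least 1 alternative, including that of Zeb2 with Ptprc (0.657 over all tumors). Krt8 with Krt18 was 0.0849 at a prior count of 0.5. Without the 2 tumors farthest from the median, r was 0.164 for Krt8 with Krt18, -0.339 for Krt7 with Krt19, 0.135 for Krt8 with Epcam, 0.0135 for Zeb1 with Zeb2, 0.0765 for Snai2 with Twist1 and -0.0480 for Zeb2 with Ptprc. Within responders r was 0.291 for Krt8 with Krt18, -0.613 for Krt7 with Krt19, 0.713 for Zeb1 with Zeb2 and -0.165 for Zeb2 with Ptprc. The cause was not tested. Depth limits Krt8, Krt18, Krt19 and Epcam, at no more than 20 counts in a tumor.

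No paired analysis was possible because tumor numbers follow accession order and pair nothing.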
